A study of Mus musculus with 24 samples.

Results

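Ovaries that had lost steroidogenic factor 1 (SF-1) before birth were compared with control ovaries on embryonic day 17.5 (ED17.5). The samples were chosen by their labels for age and genotype, which gave 8 of the 24 RNA-seq libraries of the study: 4 of conditional knockout ovaries (cKO) and 4 of controls. The cKO mice were Nr5a1 f/f with Amhr2-cre Tg/+, and the controls were littermates that were Nr5a1 f/f with Amhr2-cre +/+, so the floxed alleles were common to both groups and genotype goes together with carrying cre. Each library was made from polyadenylated RNA of whole ovaries of 5 pooled mice, and p-values therefore measure the spread between pools. The other 16 libraries were made in the same way from the same genotypes on postnatal days 1 and 4 (PND1, PND4), 4 per group.

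SF-1 is a nuclear receptor, encoded by Nr5a1, that binds DNA as a single protein and is required for the gonads and adrenal glands to form. In the fetal ovary it is made by the supporting and interstitial cells, not by the germ cells. Amhr2 encodes the receptor of anti-Müllerian hormone, and cre driven from this gene acts in somatic cells of the gonad and in the mesenchyme of the Müllerian duct, so germ cells keep Nr5a1 intact. Near the end of gestation the mouse ovary holds clusters of germ cells among pregranulosa cells, with stroma and vessels between them.

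The labels and the RNA disagreed in 1 library. Library 18 (cKO replicate 3) held 112 CPM (counts scaled to a common library total after TMM normalisation) summed over 4 Y chromosome genes, against 0.16 to 1.64 CPM in controls and 0.40 to 6.32 CPM in the other cKO libraries. The upper of these was cKO replicate 1, whose Amh level was 1.46 CPM. Amh, the gene of the Sertoli cell hormone that regresses the Müllerian duct, stood at 324 CPM in library 18 and at 0.32 to 1.46 CPM in the other 7 libraries. Marker genes of Sertoli cells summed to 649 CPM there and to at most 83.5 CPM elsewhere, and those of fetal Leydig cells to 1544 CPM against at most 122 CPM. Library 18 thus carries RNA of testis cells, and each result is given with it and without it; "rose" and "fell" are used here only of genes that passed an adjusted p of 0.05 with the same sign in both fits (edgeR). Total counts lay between 11510309 and 13054642, with 24031 to 24620 genes detected. Germ cell markers summed to 1026 to 1412 CPM in controls and 1213 to 1532 CPM in the cKO libraries other than 18, and growing oocyte markers were high in replicates 1 and 3 of both genotypes (52.4 to 88.9 CPM) and low in replicates 2 and 4 (6.45 to 14.9 CPM).

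Nr5a1, the floxed gene (ENSMUSG00000026751, GRCm38 chromosome 2, 38692656 to 38714542, minus strand), was measured at 152, 150, 120 and 167 CPM in controls and at 73.1, 62.3, 165 and 62.1 CPM in cKO replicates 1 to 4. All cKO values but that of library 18 were below every control. The log2 change was -0.70 ± 0.23 (SE) with all 8 libraries (edgeR adjusted p = 0.0294) and -1.16 ± 0.11 without library 18 (adjusted p = 8.58e-08). An exact two-sided permutation test gave p = 0.114 with 4 against 4 libraries and p = 0.0286 with 3 against 4, the smallest value either design can give. With library 18 kept, the Nr5a1 call was lost on leaving out control replicate 1, 2 or 4 or cKO replicate 1, 2 or 4 (log2 -0.54 to -0.69, adjusted p = 0.0595 to 0.111). Amhr2 (ENSMUSG00000023047, chromosome 15, 102445367 to 102454633, plus strand) was at 284, 320, 252 and 299 CPM in controls and at 72.1, 62.5, 57.9 and 54.6 CPM in cKO ovaries, library 18 included, with no overlap. Its log2 change was -2.22 ± 0.12, and -2.19 ± 0.13 without library 18 (exact permutation p = 0.0286 in both designs). The fall in Amhr2 cannot be told apart from an effect of the cre allele on the gene that gives it its name. Nr5a2, the paralogue of SF-1 (LRH-1), averaged 12.5 ± 1.09 CPM in controls (SD, n = 4) and 13.9 ± 2.68 CPM in cKO without library 18 (SD, n = 3) and did not pass in either fit (log2 0.13 and 0.15, adjusted p = 0.630 and 0.638).

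Receptors of the NR5A family recognise a short motif, and the promoters of the genes that fell were searched for its letters. RefSeq promoters (GRCm38.p6, 250 bases before to 50 after a start) were found for 12722 of the 17435 genes tested. CAAGGTCA or CAAGGCCA, on either strand, stood in 3.92% of all 32851 promoters in the table. By gene, it stood in a promoter of 3.67% of these tested genes (467 of 12722). Among genes that fell at least 2-fold in both fits, 12.4% had it (28 of 225). The share was 5.82% (17 of 292) for falls of 1.5 to 2-fold and 3.78% (30 of 794) for smaller falls. It was 3.47% (355 of 10245) for genes not called, and 2.24% (3 of 134), 3.36% (12 of 357) and 3.26% (22 of 675) for rises of at least 2-fold, 1.5 to 2-fold and less. With CAAGGTCA alone the largest falls had it in 5.78% (13 genes), the genes not called in 1.18% and the largest rises in 1.49%. Both forms were therefore most frequent in the class of genes with the largest falls, and genes in that class had as many annotated promoters each (1.26) as the genes not called (1.26). The matches of that class include Amhr2, whose fall cannot be told apart from an effect of the cre allele. They also include Svs5 and Svs6, whose promoters have nearly the same sequence. A match is a run of letters, not a measured binding site, and no test was made of these shares.

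**Figure D1:**
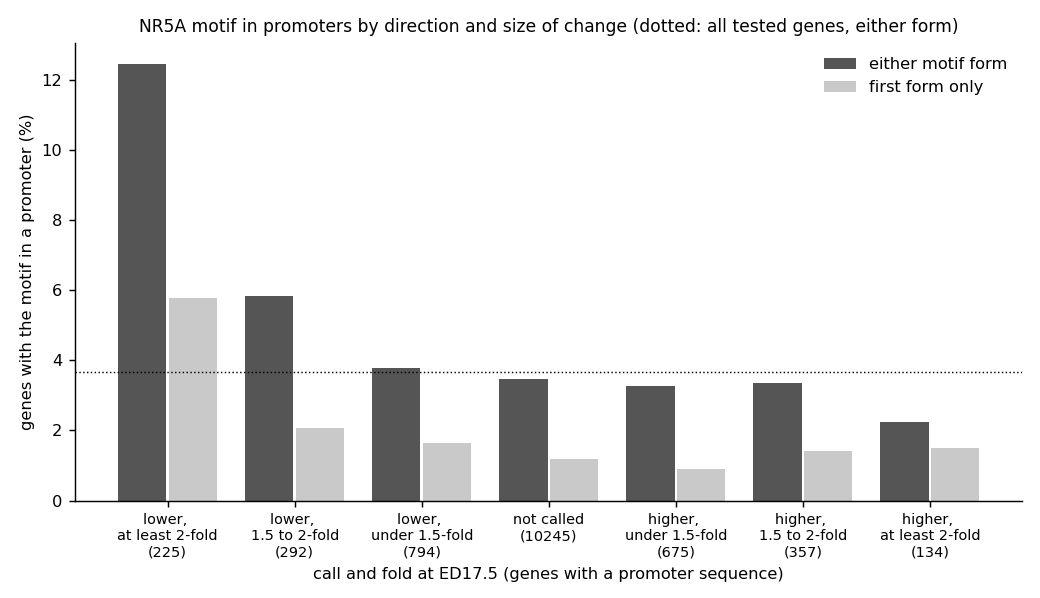
Share of genes (vertical axis, %) with the NR5A motif in a RefSeq promoter, for genes lower in cKO, not called and higher in cKO, split by fold (smaller of the folds with and without library 18); dark bars count either form, light bars CAAGGTCA only, and numbers of genes stand in brackets. The bars for falls of at least 2-fold are at 12.4% and 5.78%, against 3.47% and 1.18% for genes not called.

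The following stretches show the motif where CAAGGTCA lay wholly upstream of the start in genes that fell at least 2-fold, so that the flanking bases can be compared. Each is 40 bases from RefSeq (GRCm38.p6), read 5′ to 3′ on the strand that carries CAAGGTCA, with the motif in capitals:
Amhr2 (chr15:102445119-102445158, plus): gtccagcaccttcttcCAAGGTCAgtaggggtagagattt
Prcd (chr11:116657050-116657089, plus): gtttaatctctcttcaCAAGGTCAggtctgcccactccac
Chit1 (chr1:134111156-134111195, minus): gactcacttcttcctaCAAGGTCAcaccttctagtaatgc
Cst8 (chr2:148798775-148798814, plus): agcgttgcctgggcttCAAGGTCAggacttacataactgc
A1bg (chr15:60921308-60921347, minus): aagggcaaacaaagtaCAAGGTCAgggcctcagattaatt
Bhmt (chr13:93637809-93637848, minus): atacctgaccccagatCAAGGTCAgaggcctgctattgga
Rilp (chr11:75509948-75509987, minus): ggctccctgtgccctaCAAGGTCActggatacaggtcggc
Defb42 (chr14:63046856-63046895, minus): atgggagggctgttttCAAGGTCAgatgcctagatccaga
Kcnf1 (chr12:17176941-17176980, minus): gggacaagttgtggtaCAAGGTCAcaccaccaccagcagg
Paqr8 (chr1:20917680-20917719, plus): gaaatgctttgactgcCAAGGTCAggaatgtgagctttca

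These genes were chosen for their fold and their motif. Prcd, a gene whose protein is needed in photoreceptor discs, stood at 31.4, 36.5, 27.0 and 34.3 CPM in controls and 10.0, 8.16, 8.55 and 8.60 CPM in cKO ovaries, and its change was the same with and without library 18 (-1.87 and -1.85). Cst8, a cystatin gene, was at 12.7 to 23.1 CPM in controls, 1.77 to 2.83 CPM in cKO replicates 1, 2 and 4 and 21.05 CPM in library 18. Library 18 thus sat among the controls, and the change went from -1.5 with it to -3.06 without it. The other genes of the set changed by -1.93 and -1.54 (Chit1, a chitinase), -1.43 and -1.42 (A1bg), -1.51 and -1.40 (Bhmt, a homocysteine methyltransferase), -1.39 and -1.38 (Rilp, a lysosomal adaptor), -1.31 and -1.88 (Defb42, a defensin), -1.28 and -1.18 (Kcnf1, a silent potassium channel subunit) and -1.07 and -1.07 (Paqr8, a membrane progestin receptor), with and without library 18.

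Across all genes, 1578 rose and 1695 fell in both fits, which is 18.8% of the 17435 genes tested (9.05% higher and 9.72% lower). With all 8 libraries 4040 passed (1941 higher, 2099 lower) and without library 18 3631 passed (1733 higher, 1898 lower). Of the genes that passed with all 8 libraries, 767 did not join both fits, and in 524 of these library 18 lay outside the range of the other cKO libraries. Among the 767 were 2 genes that passed in both fits with opposite signs. Another 340 genes kept their sign and passed only without library 18, 185 of them lower. Values of the 3 cKO libraries other than 18 did not overlap those of the 4 controls in 29.9% of the genes. The median log2 change over all genes was -0.0072 with all 8 libraries and -0.0017 without library 18, a centre that the scaling sets near 0. The more frequent direction changed with the scaling: edgeR with DESeq2 size factors called 2060 genes higher and 1968 lower, and DESeq2 2133 and 2014, with all 8 libraries. It also depended on the set of libraries, with 2036 higher and 1864 lower without control replicate 3, but 1643 and 1808 without control replicate 1. Protein-coding genes were called in 20.6% of 15216, and long non-coding genes (lincRNA, antisense or processed transcript) in 8.73% of 1192. The median level of these classes was 29.0 and 1.33 CPM. Because whole ovaries were measured, fewer cells of a type and less RNA per cell cannot be told apart.

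**Figure D2:**
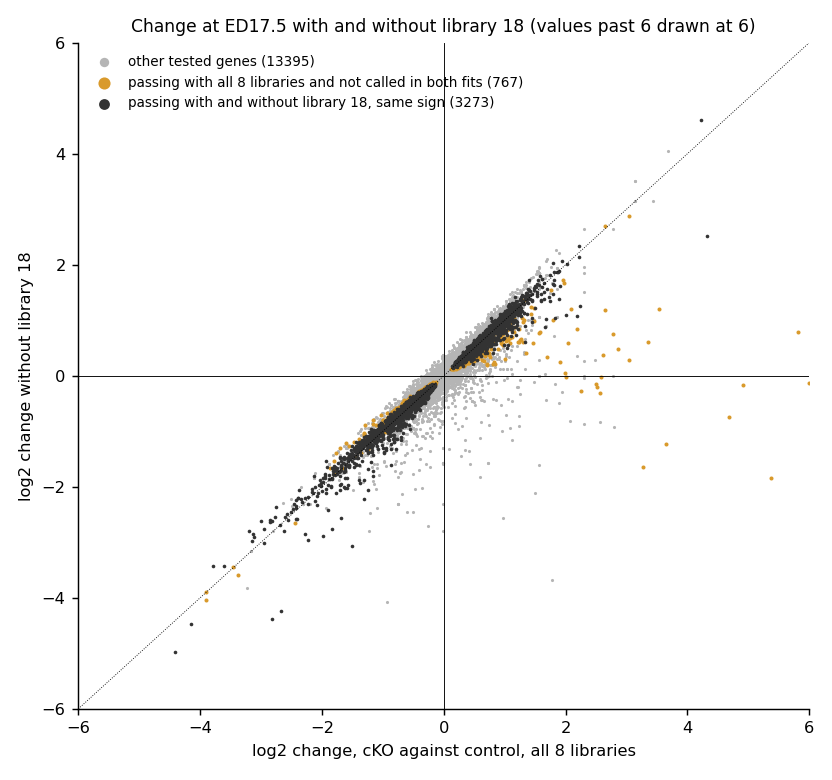
Log2 change (cKO against control) of each tested gene with all 8 ED17.5 libraries (horizontal axis) and without library 18 (vertical axis); dark points passed in both fits with the same sign (3273) and orange points passed with all 8 libraries only or changed sign (767). The dark points lie along the diagonal, and the orange points at the lower right are genes raised by library 18 alone.

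Called genotype differences were smaller in strongly than in weakly expressed genes. Genes were put into 5 classes of mean level over the 8 ED17.5 libraries. Below 1 CPM, 3.72% of 1828 genes were called, and 12.0% of 3227 at 1 to 5 CPM. From 5 CPM upward the share was nearly level, at 21.9% (5 to 20 CPM), 22.4% (20 to 100 CPM) and 24.7% (100 CPM and over). Among the called genes the median size of the log2 change without library 18 fell from class to class, at 1.62, 1.06, 0.67, 0.44 and 0.39. The median standard error of a gene fell too, from 0.49 in the lowest class to 0.08 in the highest, so a weakly expressed gene had to change more to pass: the smallest called change was 0.88 in the lowest class and 0.14 in the highest. Over all genes of a class, called or not, the median size was 0.47, 0.35, 0.24, 0.14 and 0.12. The median standard errors of the classes were 0.49, 0.30, 0.15, 0.09 and 0.08, so these medians cannot separate size of effect from noise. Changes of at least 2-fold in both fits made up 50.9% of the calls at 1 to 5 CPM and 4.35% at 100 CPM and over. Called falls were the larger below 5 CPM (medians 1.88 against 1.41, and 1.14 against 0.98) and called rises above 20 CPM (0.48 against 0.40, and 0.42 against 0.35).

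**Figure D3:**
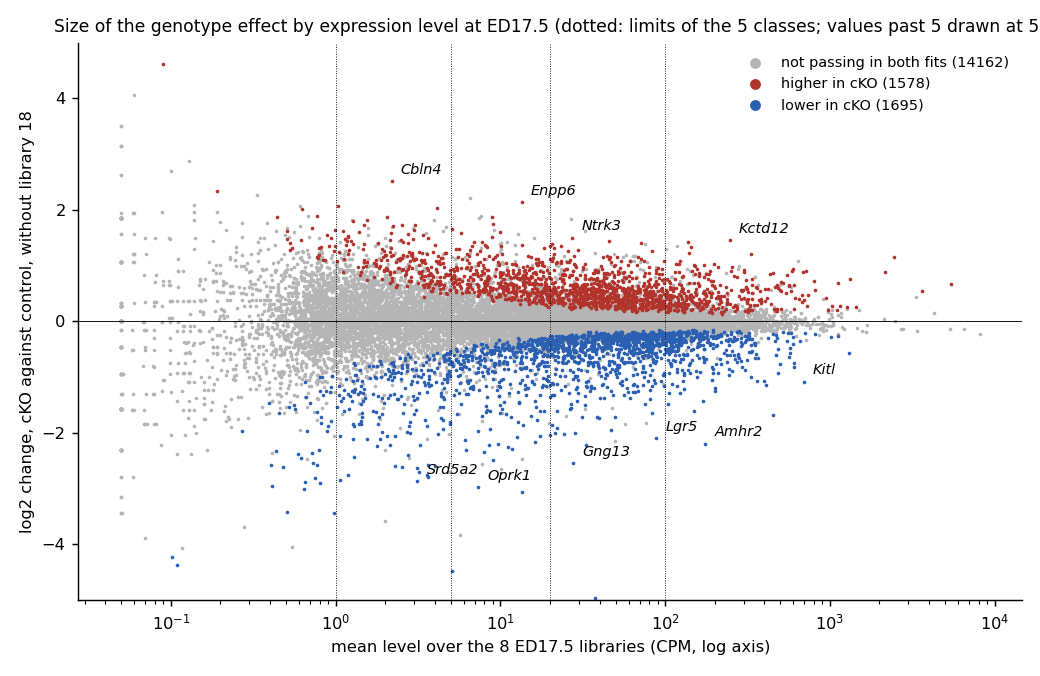
Log2 change without library 18 (vertical axis) against the mean level over the 8 libraries (horizontal axis, CPM, log scale); red and blue points are the 1578 genes that rose and the 1695 that fell in both fits, and dotted lines separate the 5 classes. Points past 2-fold thin out to the right, where 12 rises and 16 falls of that size remain at 100 CPM and over.

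At 100 CPM and over the largest rises were in Svep1, Kctd12, Col6a6 and Cacna1g. Kctd12, an auxiliary subunit of GABA-B receptors, was at 123.5, 127, 163 and 129 CPM in controls and at 381, 389, 320 and 348 CPM in cKO ovaries. No value overlapped, and library 18 was the lowest of the cKO group (log2 1.41 ± 0.10, and 1.46 ± 0.10 without it). Svep1, a large matrix adhesion protein, rose by 1.52 (1.43 without library 18), Col6a6, a collagen VI chain, by 1.30 (1.34), and Cacna1g, a T-type calcium channel, by 1.23 (1.23). The largest falls at 100 CPM and over were in Amhr2, in the Wnt ligand genes Wnt6 (-1.44, and -1.61 without library 18) and Wnt2b (-1.39 and -1.28), and in Aldh1a1, described with retinoic acid below.

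At 20 to 100 CPM the largest rises were in Ntrk3, the receptor of neurotrophin 3, Plekha6, Lrfn5, a synaptic adhesion protein, and Cyp26b1. Ntrk3 stood at 13.4, 13.4, 18.8 and 10.8 CPM in controls and 41.5, 38.9, 42.8 and 39.6 CPM in cKO ovaries (log2 1.53 ± 0.15, and 1.5 ± 0.15 without library 18). Its ligand gene Ntf3, at 0.40 CPM in controls on average, rose as well (1.59 and 1.34). Lrfn5 was at 24.3 to 27.2 CPM in 3 cKO libraries and 46.9 CPM in library 18 (1.65 and 1.39). The largest falls in the class were in Gng13, a G protein gamma subunit (-2.60 and -2.54), Cfap54, which encodes a protein of cilia and flagella (-2.35 and -2.22), Lgr5, the R-spondin receptor (-2.16 and -2.10), and Smpx, a small muscle protein (-1.99 and -1.91). Between 5 and 20 CPM Enpp6, a choline-specific phosphodiesterase, went from 3.76, 5.24, 4.83 and 5.22 CPM to 21.3, 19.8, 26.4 and 21.7 CPM, the largest rise of its class (2.23 ± 0.33, and 2.14 ± 0.34). Asic1, an acid-sensing channel (1.82 and 1.87), Col11a2 (1.62 and 1.75) and Adamtsl2 (1.90 and 1.61) followed.

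Among the genes named by rank at 5 to 20 CPM, the largest fall was in Oprk1. Oprk1, the kappa opioid receptor, stood at 14.0, 14.3, 9.58 and 15.0 CPM in controls and 2.11, 1.77, 0.95 and 1.12 CPM in cKO ovaries, a log2 change of -3.14 ± 0.27 (-2.98 ± 0.28 without library 18). Every cKO value was below every control, and library 18 was the lowest.

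Trim66, a bromodomain protein (-2.58 and -2.49), and 2 genes of cilia and microtubules, Cfap161 (-2.33 and -2.28) and Ttll10, a tubulin-modifying enzyme (-2.23 and -2.30), fell with it. At 1 to 5 CPM Srd5a2, a steroid 5-alpha reductase that makes dihydrotestosterone, went from 5.68, 5.41, 4.21 and 7.28 CPM to 0.65, 0.62, 0.24 and 1.04 CPM (-3.13 ± 0.31, and -2.86 ± 0.31). The seminal vesicle protein genes Svs5 (-2.95 and -2.76) and Svs6 (-3.61 and -3.43), which are neighbours on chromosome 2 and belong to 1 family, fell to under 1.6 CPM. The proline transporter gene Slc6a7 (-2.85 and -2.64) and the cytochrome P450 gene Cyp2f2 (-2.62 and -2.79) completed the largest falls of the class. Rises there were in Cbln4, a cerebellin (4.32 with and 2.51 without library 18, which held 13.1 CPM against 0.85 to 1.46 CPM in the other cKO libraries), Crct1 (1.94 and 2.07), Tmem132b (1.86 and 1.87) and the chemokine gene Ccl6 (1.79 and 2.04). Below 1 CPM the genes named by rank were Grin2c (2.03 and 2.02), Bcl2a1b (1.88 and 1.87), Tlx1 (1.5 and 1.62) and Cd300lf (1.39 and 1.54) among rises, and Adgrg7 (-3.20 and -2.80) and Fndc7 (-2.78 and -2.54) beside Svs6 and Accsl among falls. Accsl had no read in cKO replicates 1, 2 and 4, so its fitted change depends on the prior count and is not given.

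**Figure D4:**
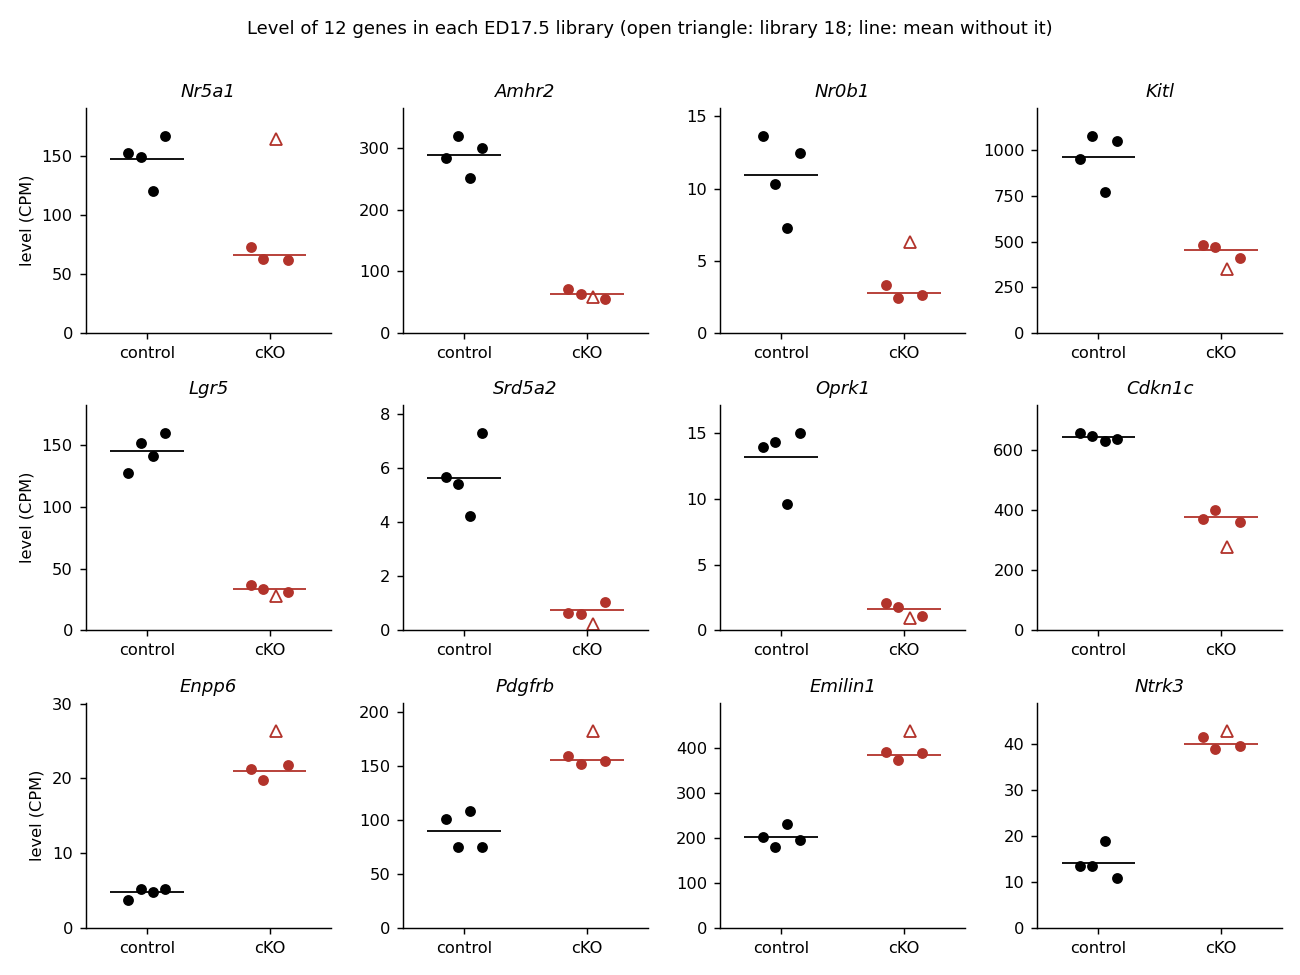
Level (CPM, linear axis from 0) of 12 genes in each ED17.5 library, with controls in black and cKO in red; the open triangle is library 18 and the line is the group mean, without library 18 in cKO. For Nr5a1 the triangle (165 CPM) sits among the controls, while for Amhr2, Oprk1, Lgr5, Enpp6 and Ntrk3 it sits with the other cKO libraries.

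Transcription factors of the early gonad changed in both directions. Of 24 tested, 8 rose and 7 fell, 62.5% against 18.8% of all genes, and the median change was 0.12 (0.14 without library 18). The falls counted here include Nr5a1, the floxed gene itself. Runx1, a factor of the supporting cell lineage, was at 69.3, 61.9, 50.7 and 67.7 CPM in controls and 34.9, 34.9, 22.9 and 29.2 CPM in cKO ovaries, with no overlap (-1.03 ± 0.13, and -0.92 ± 0.12). Foxl2, the factor that maintains granulosa cell identity, averaged 151 ± 28.4 CPM in controls (SD, n = 4) against 99.5 ± 19.5 CPM in cKO (SD, n = 3), and the groups overlapped, cKO replicate 1 (122 CPM) lying above control replicate 3 (119 CPM); the change was -0.69 (-0.60 without library 18). Lhx9, a LIM factor of the gonadal primordium, fell from 141, 173, 151 and 149 CPM to 94.9, 96.3, 104 and 95.7 CPM (-0.65 and -0.68). Nr2f2, which encodes COUP-TFII, a factor of interstitial cells, was higher (0.89 and 0.81).

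The nuclear receptor family had 6 rises and 6 falls among 42 tested genes (28.6% against 18.8% of all genes, median 0.07, and 0.04 without library 18). The floxed gene Nr5a1 is counted among these falls too. Nr0b1 encodes DAX1, a corepressor of SF-1 and a described SF-1 target. It stood at 13.7, 10.3, 7.24 and 12.5 CPM in controls and 3.32, 2.39, 6.33 and 2.63 CPM in cKO ovaries, with library 18 the highest of the cKO group and below every control (-1.57 ± 0.25, and -1.97 ± 0.23). Nr2e3, a photoreceptor nuclear receptor at 0.69 CPM in controls, fell as well (-2.43 and -2.59). Esrrg, an oestrogen-related receptor, rose from a mean of 0.66 to 1.81 CPM (1.33 and 1.44). Of 17 described SF-1 targets, 0 rose and 3 fell (17.6%, near the 18.8% of all genes called, with 9.72% of all genes falling). These were Nr0b1, the pantetheinase gene Vnn1 (-0.95 and -0.94) and Fdxr, ferredoxin reductase (-0.78 and -1.33). Without library 18, 10 of the 17 passed, all lower; with it 3 were higher and 3 lower, and the median moved from 0.13 to -0.95. Lhcgr, the receptor of luteinising hormone, is an example: it was at 16.5, 18.4, 11.4 and 16.9 CPM in controls, at 3.48, 3.39 and 1.67 CPM in 3 cKO libraries and at 35.9 CPM in library 18, and passed only without that library (-0.51, adjusted p = 0.614, and -2.46, adjusted p = 1.06e-05). It was picked after its values were seen.

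Homeobox and other transcription factor families are given by their counts. Of 31 Hox genes tested with edgeR, 0 passed in both fits, 0 with all 8 libraries and 2 without library 18 (1 higher, 1 lower). Of 3 Iroquois genes 2 fell: Irx3 from 115 to 140 CPM in controls to 36.5 to 49.1 CPM in cKO (-1.79 and -1.65) and its neighbour Irx5 (-1.34 and -1.16). Both are expressed in pregranulosa cells. The LIM homeobox list, which also holds its sine oculis relatives, and the Sox, Forkhead, T-box and Kruppel-like families had 1, 3, 2, 1 and 4 rises and 1, 1, 2, 0 and 2 falls, of 10, 15, 25, 7 and 17 genes. Their shares called were 20.0%, 26.7%, 16.0%, 14.3% and 35.3%. Zinc finger genes named Zfp were called in 8.56% of 374 (11 rises, 21 falls), under the 18.8% of all genes.

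Retinoic acid, a signal linked to germ cell meiosis in the fetal ovary, is made by ALDH1A enzymes and removed by CYP26 enzymes. Of 20 pathway genes 5 rose and 2 fell (35.0% against 18.8% of all genes, median 0.21, and 0.14 without library 18). Aldh1a1, a synthesis enzyme, was at 612, 674, 565 and 701 CPM in controls and at 237, 191, 478 and 168 CPM in cKO ovaries. Library 18 was the highest cKO value and still below every control (-1.25 ± 0.23, and -1.68 ± 0.14). Cyp26b1, the main degrading enzyme, was at 9.89, 7.29, 12.1 and 7.45 CPM in controls and 24.0, 23.9, 53.3 and 22.1 CPM in cKO ovaries (1.74 ± 0.25, and 1.34 ± 0.17 without library 18, the highest). Dhrs3, which turns retinaldehyde back to retinol, fell (-0.41 and -0.36), and the receptor gene Rarg rose (0.51 and 0.46). Stra8, the germ cell target of retinoic acid, was at 1.00, 0.49, 0.31 and 3.59 CPM in controls and 2.67, 7.47, 6.25 and 2.23 CPM in cKO ovaries. It passed (1.80 and 1.64), although control replicate 4 lay above 2 cKO libraries.

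In receptor tyrosine kinase pathways of mesenchyme most of the called genes were higher. For PDGF and VEGF ligands and receptors 10 of 17 genes rose and 0 fell (58.8% against 18.8% of all genes, median 0.56 with and without library 18). With edgeR without library 18, 1 gene of this list was lower. Pdgfrb, the PDGF receptor of perivascular and stromal cells, was at 101, 75.1, 109 and 75.1 CPM in controls and 160, 152, 183 and 155 CPM in cKO ovaries (0.85 ± 0.14, and 0.79 ± 0.14). The groups did not overlap, and controls themselves fell into an upper pair (replicates 1 and 3) and a lower pair (2 and 4). Pdgfra rose by 1.15, with 955 CPM in library 18 against 485 to 550 CPM in the other cKO libraries, and by 0.87 without it, and the co-receptor gene Nrp2 by 0.85 (0.88). Of 24 FGF pathway genes 8 rose and 1 fell (37.5%, median 0.45 and 0.36). The receptor genes moved apart: Fgfr1, the mesenchymal receptor, rose from 87.5 to 121 CPM in controls to 142 to 154 CPM in cKO (0.58 and 0.55) and Fgfr3 rose (0.71 and 0.68), while Fgfr2, the receptor of epithelia and supporting cells, fell from 193 to 238 CPM to 121 to 153 CPM (-0.70 and -0.68). The ligand gene Fgf2 (0.41 and 0.42) and the feedback phosphatase gene Dusp6 (0.52 and 0.36) rose.

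In the IGF and relaxin list 8 of 19 genes rose and 1 fell (47.4% against 18.8% of all genes, median 0.37, and 0.21 without library 18). The binding protein genes Igfbp5 (0.50 and 0.55; 2872, 2909, 3309 and 2826 CPM in controls and 4682, 3941, 3805 and 4478 CPM in cKO ovaries) and Igfbp6 (0.61 and 0.62) rose, and Igfbp2 fell (-0.74 and -0.68). Of 19 prostaglandin genes 6 rose and 3 fell (median 0.41 and 0.57), led by the synthase genes Ptgis for prostacyclin (0.82 and 0.81) and Ptgds for prostaglandin D (1.88 and 1.37; 40.4 CPM in library 18 against 13.6 to 15.8 CPM in the other cKO libraries) and by the catabolic enzyme gene Hpgd (0.67 and 0.68). ERBB, Hippo and JAK-STAT lists gave 3 rises and 1 fall of 15, 5 and 5 of 23, and 3 and 4 of 22 (26.7%, 43.5% and 31.8% called). These lists overlap the markers of stroma: its 6 markers summed to 5650 to 9025 CPM in controls (control replicate 3 highest) and 11123 to 11944 CPM in the cKO libraries other than 18, and 5 of the 6 rose. Most of each sum was RNA of the collagen genes Col3a1 and Col1a1. Whether the share of stromal RNA accounts for these rises was not tested.

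Kitl encodes the ligand through which somatic cells act on KIT in oocytes. It stood at 954, 1078, 771 and 1049 CPM in controls and 483, 469, 351 and 412 CPM in cKO ovaries. Every cKO value was below every control, by -1.17 ± 0.12 (-1.08 ± 0.12 without library 18). It was 1 of 3 called genes among 22 of the KIT, PI3K and FOXO list (1 rise, 2 falls, median 0.02 and 0.04). That share of 13.6% was under the 18.8% of all genes. The marker genes of pregranulosa cells, among which Kitl, Foxl2, Irx3 and Lgr5 are counted, summed to 1530 to 2030 CPM in controls and 854 to 1003 CPM in cKO libraries other than 18, with 6 of 8 lower. Kitl itself was the largest term of this sum, so the sum is not separate from its fall. The other markers that passed fell as well. Lgr5 (-2.16 and -2.10), Irx3 (-1.79 and -1.65) and Bmp2 (-1.32 and -1.29) changed more than Kitl on the log2 scale. Fst (-1.07 and -1.0046) and Foxl2 (-0.69 and -0.60) changed less. The markers that did not pass in both fits were Wnt4 (-0.13 and -0.09) and Rspo1 (-0.42 and -0.32).

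Cyclins and inhibitors of their kinases changed in both directions. Cdkn1c, which encodes the inhibitor p57, was at 656, 647, 631 and 636 CPM in controls, a narrow range, and at 369, 400, 276 and 362 CPM in cKO ovaries (-0.87 ± 0.09, and -0.77 ± 0.08). Cdkn1b, which encodes the inhibitor p27, fell from 287 to 391 CPM to 200 to 228 CPM (-0.86 and -0.74). Cyclin D2, the granulosa cyclin (Ccnd2, -0.34 and -0.40), also fell, whereas cyclin D1 (Ccnd1, 0.58 and 0.62) and the inhibitor gene Cdkn2c (0.99 and 0.93) rose; in all 5 of 16 genes of this list rose and 3 fell. Of 33 DNA replication genes 10 rose and 0 fell (median 0.24 and 0.27). The share was 30.3%, against 18.8% of all genes called in either direction and 9.05% of all genes that rose. The changes were small: the polymerase subunit gene Pole was at 79.8 to 94.6 CPM in controls and 118 to 140 CPM in cKO (0.59 and 0.54), Gins1, of the replicative helicase, changed by 0.38 and 0.42, and Lig1, the DNA ligase that joins replicated fragments, by 0.43 and 0.43.

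Several lists of matrix genes had shares of calls above the 18.8% of all genes, with more rises than falls. The sum of stroma markers moved with them, from 5650 to 9025 CPM in controls to 11123 to 11944 CPM in cKO libraries other than 18 (5 of 6 markers rose). Most of this sum was RNA of Col3a1 and Col1a1, which are matrix genes themselves, so it is not a separate measure of stroma. Of the other markers, Tcf21 rose by 0.48 (0.38 without library 18), Nr2f2 by 0.89 (0.81) and Pdgfra by 1.15 (0.87). Dcn did not pass in both fits. The part of stroma in these changes was not tested. Of 31 genes of elastic fibres and matricellular proteins 19 rose and 1 fell (64.5%; median 0.53, and 0.58 without library 18). Emilin1, a protein at the surface of elastic fibres, was at 203, 179, 232 and 195 CPM in controls and 389, 372, 437 and 388 CPM in cKO ovaries (0.97 ± 0.13, and 0.93 ± 0.13), with no overlap. Eln, tropoelastin, went from 618, 551, 729 and 588 CPM to 1081, 1057, 854 and 938 CPM (0.66 and 0.72), and the thrombospondin gene Thbs3 rose (0.68 and 0.74). The single fall was another thrombospondin, Thbs2 (-0.65 and -0.60), from 273 to 340 CPM in controls to 171 to 222 CPM in cKO. Of 23 genes of the ADAMTS and ADAMTSL family, secreted proteases and their relatives that process matrix, 14 rose and 2 fell (69.6%; median 0.75 and 0.69). Adamts4, which cleaves proteoglycans, rose from 5.39 to 7.71 CPM to 13.9 to 15.0 CPM (1.20 and 1.21), and Adamts2, which processes procollagen, from 131 to 141 CPM to 216 to 244 CPM (0.77 and 0.76). Adamts19 went the other way, from 449, 480, 429 and 457 CPM in controls to 231, 239, 181 and 210 CPM in cKO ovaries (-1.07 ± 0.08, and -1.0 ± 0.07).

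The basement membrane family of laminins and nidogens had 6 rises and 2 falls of 13 (61.5% against 18.8% of all genes, median 0.29 and 0.33). Its alpha chains moved apart: Lama1 (-1.11 and -1.19) and Lama3 (-1.64 and -1.73), chains of epithelial basement membranes, fell, and Lama2 (0.92 and 0.65) and Lama4 (0.60 and 0.55), chains of muscle and vessels, rose. Lama1 was at 263 to 287 CPM in controls and 114 to 128 CPM in cKO, with 148 CPM in library 18. Among 24 integrins 6 rose and 2 fell, with Itga6, a laminin receptor subunit, lower (-0.81 and -0.82; 775 CPM on average in controls and 439 CPM in cKO) and Itga8, a fibronectin and nephronectin receptor subunit, higher (0.86 and 0.88). Of 24 proteoglycans 9 rose and 3 fell, led by Prelp (0.73 and 0.76), Bgn, biglycan (0.85 and 0.82) and Sdc3, a syndecan (0.72 and 0.62). Of 17 MMP and TIMP genes 6 rose, Mmp2 among them (0.66 and 0.66), and 2 fell, with the membrane protease gene Mmp15 at -1.06 and -1.15. Classical cadherins had 7 rises and 2 falls of 23 (39.1%) and protocadherins 12 and 1 of 55 (23.6%). Claudins had 1 and 1 of 13 (15.4%), connexins 2 and 1 of 9 (33.3%) and keratins 2 and 3 of 19 (26.3%). Control replicate 3, the control with the highest stroma marker sum (9025 CPM), was also the highest control for Bgn (240 CPM against 164 to 172 CPM), Thbs3, Emilin1 and Eln.

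**Figure D5:**
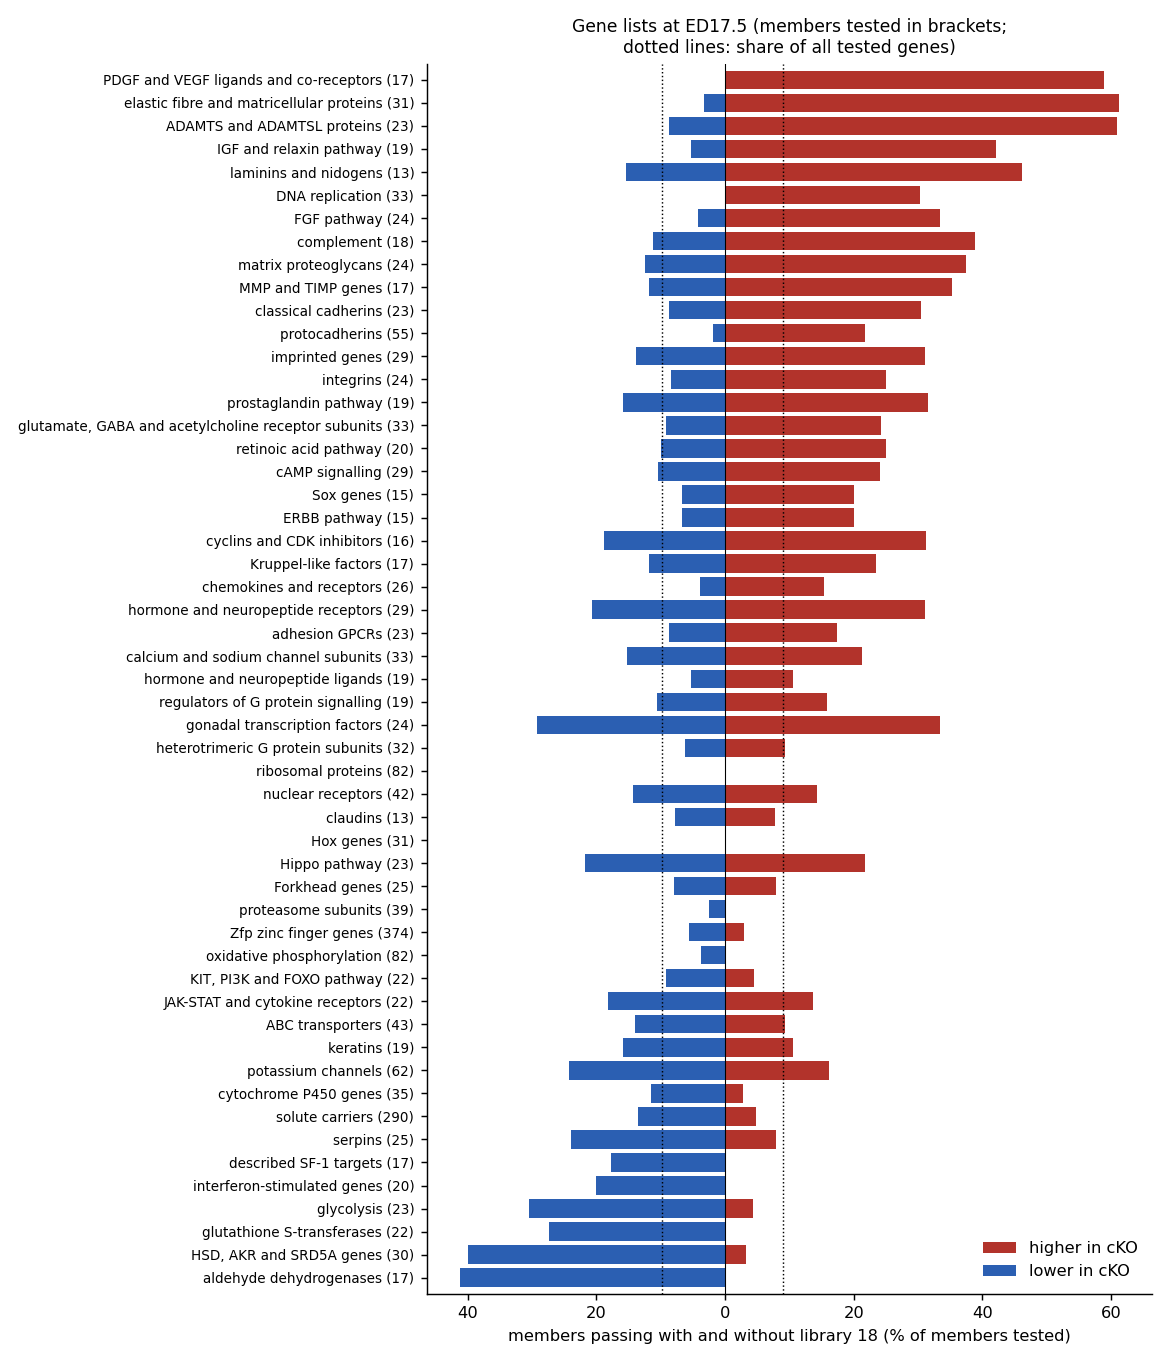
Share of tested members (horizontal axis, %) that rose (red, to the right) or fell (blue, to the left) with and without library 18, for each list with at least 13 tested members; dotted lines mark the shares of all tested genes, 9.05% and 9.72%. Matrix and PDGF lists have the longest bars to the right, several enzyme families have longer bars to the left, and ribosomal protein and Hox genes have no bar.

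In metabolic enzyme families most of the called genes were lower. Of 30 hydroxysteroid dehydrogenase, aldo-keto reductase and 5-alpha reductase genes 12 fell and 1 rose (median -0.34, and -0.42 without library 18). The share called was 43.3%, against 18.8% of all genes. Besides Srd5a2, these were led by Akr1c14, which reduces dihydrotestosterone and dihydroprogesterone, at 174, 180, 122.7 and 163 CPM in controls and 105, 76.0, 48.1 and 75.2 CPM in cKO ovaries (-1.07 ± 0.16, and -0.90 ± 0.12), Akr1b10 (-0.54 and -0.55), Akr1c13 (-1.42 and -1.31) and Hsd17b2, which oxidises oestradiol and testosterone (-1.69 and -1.54). The single rise was Hsd11b2, which inactivates corticosterone, from 15.5 to 28.1 CPM in controls to 28.1 to 37.0 CPM in cKO (0.71 and 0.60), named because it was the only one. The Akr1c genes are a cluster of close copies, so reads may be split among them. Of 17 aldehyde dehydrogenases 7 fell and 0 rose (41.2%, median -0.26 and -0.40). Among the falls were Aldh1a7, a close copy of Aldh1a1 (-1.59 and -2.02), Aldh3a2 for fatty aldehydes (-0.42 and -0.46) and Aldh5a1 for succinate semialdehyde (-0.58 and -0.65). Of 22 glutathione S-transferases 6 fell and 0 rose (27.3%, median -0.22 and -0.27). Gstm6 was at 245, 240, 199 and 247 CPM in controls and 100, 81.6, 159 and 77.9 CPM in cKO ovaries, library 18 again the closest to the controls (-1.15 and -1.43), and Gstm2 (-0.69 and -0.88) and the microsomal gene Mgst1 (-0.43 and -0.44) fell with it.

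Glycolysis had 7 falls and 1 rise of 23 (median -0.15 in both fits). Aldoa, the main aldolase, went from 717, 665, 664 and 672 CPM to 445, 498, 507 and 432 CPM (-0.53 ± 0.07, and -0.56 ± 0.08), Aldoc (-1.0 and -1.14), Ldhb, a lactate dehydrogenase (-0.42 and -0.44), and Hk2, a hexokinase (-0.71 and -0.98), fell, and the enolase gene Eno2 rose (0.82 and 0.83). Genes of oxidative phosphorylation were nearly all below the threshold, with 0 rises and 3 falls of 82 (3.66%): Cox7a1 (-0.95 and -1.30), Sdhd (-0.21 and -0.21) and Ndufs8 (-0.22 and -0.29). Of 82 ribosomal protein genes 0 passed in edgeR with all 8 libraries, without library 18 or in both, and their median was -0.09 and -0.08. Of 39 proteasome subunits the interferon-induced Psmb9 alone passed in both fits (-1.06 and -1.02), while with all 8 libraries 1 was higher and 3 lower. Solute carriers were called in 18.3% of 290, near the 18.8% of all genes, with 39 falls and 14 rises. Slc35f2 (-1.55 and -1.60) and the sugar carrier gene Slc5a4a (-2.83 and -2.61) fell. Cytochrome P450 genes had 1 rise and 4 falls of 35 (14.3%), ABC transporters 4 and 6 of 43 (23.3%) and serpins 2 and 6 of 25 (32.0%).

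Channels and receptors of excitable cells were called often and in both directions. Of 62 potassium channel genes 10 rose and 15 fell (40.3% against 18.8% of all genes, median 0.01, and -0.02 without library 18). Kcng4, a modifier subunit, was at 26.7, 24.6, 20.8 and 33.0 CPM in controls and 6.88, 5.85, 7.28 and 4.78 CPM in cKO ovaries (-2.08 ± 0.17, and -2.16 ± 0.19), and Kcnn2, a calcium-activated channel, fell from 10.7 to 12.5 CPM to 4.70 to 5.67 CPM (-1.25 and -1.17). T-type calcium channels moved apart, with Cacna1i lower (-2.02 and -1.93) and Cacna1g higher; calcium and sodium channel subunits together had 7 rises and 5 falls of 33. Subunits of glutamate, GABA and acetylcholine receptors had 8 rises and 3 falls of 33, with Gria4 (1.12 and 1.00) and Grik2 (1.59 and 1.36) among the rises. Markers of neurons and glia summed to 34.0 to 43.0 CPM in controls and 25.7 to 35.7 CPM in cKO libraries other than 18.

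Receptors for hormones and neuropeptides had 9 rises and 6 falls of 29 (51.7% against 18.8% of all genes, median 0.56 and 0.48). Nmur2, a neuromedin U receptor, fell beside Oprk1 (-2.42 and -2.23), and Adcyap1r1, the PACAP receptor, rose from 25.7 to 38.7 CPM to 61.6 to 75.1 CPM (1.22 and 1.15) beside Ntrk3. Their ligand genes were called in 3 of 19 (15.8%, under the share of all genes). Among them was Inhba, the activin subunit, at 8.56 to 13.8 CPM in controls, 20.3 to 22.6 CPM in cKO and 81.7 CPM in library 18 (1.82 and 1.05). In cAMP signalling 7 genes rose and 3 fell of 29 (34.5%, median 0.05, and 0.0032 without library 18). The phosphodiesterases that degrade cAMP moved apart: Pde8b, the form of steroid-making cells, was at 35.9, 35.0, 25.3 and 39.0 CPM in controls and 9.39, 7.39, 12.1 and 8.37 CPM in cKO ovaries (-1.86 ± 0.13, and -2.01 ± 0.13), and Pde3a rose from 41.6 to 52.5 CPM to 83.6 to 96.4 CPM (0.99 and 1.02). Adhesion GPCRs, RGS proteins and G protein subunits had 4, 3 and 3 rises and 2, 2 and 2 falls of 23, 19 and 32. Their shares called were 26.1%, 26.3% and 15.6%.

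Of 18 complement genes 7 rose and 2 fell (50% against 18.8% of all genes). Those with the smallest p were the C1q chain genes C1qb (0.85 and 0.94) and C1qc (0.76 and 0.84) and the receptor gene C3ar1 (1.13 and 1.19), made by macrophages. The 6 macrophage markers summed to 120 to 186 CPM in controls and 207 to 250 CPM in cKO libraries other than 18 (172 CPM in library 18), and endothelial markers to 388 to 421 CPM and 526 to 554 CPM; their part in these rises was not tested. Of 20 interferon-stimulated genes 0 rose and 4 fell (median -0.45 and -0.39): Ifi27 (-0.52 and -0.51), Ifit3 (-1.31 and -1.11), Oas2 (-1.0 and -0.92) and Irf9 (-0.51 and -0.39). The share of 20.0% is near the 18.8% of all genes called in either direction, and above the 9.72% of all genes that fell. Chemokines and their receptors had 4 rises and 1 fall of 26 (19.2%, near the share of all genes). Of 29 imprinted genes 9 rose and 4 fell, with Plagl1, a growth regulator (1.04 and 0.97), and Grb10, an adaptor that restrains insulin signalling (0.53 and 0.51), higher and Cdkn1c lower.

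The ED17.5 effect was then set against the mean of the PND1 and PND4 effects by a contrast in the same model, which asks whether the effect before birth differed from that after it. It passed with and without library 18 in 733 genes, 4.2% of those tested, 370 with the ED17.5 effect above the postnatal one and 363 below. Of the 3273 genes called at ED17.5, 1620 were called in the same direction at both postnatal ages, 1013 at neither, and 84.9% had the same sign at all 3 ages. In 412 of the 3273 this contrast passed. Of these, 175 rose more at ED17.5 than after birth, 72 rose less, 137 fell more and 28 fell less. In 9 genes the effect was called the other way at both postnatal ages.

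Among these Chodl, a membrane lectin, was at 12.6, 23.6, 15.8 and 20.0 CPM in controls and 5.18, 7.85, 4.19 and 3.35 CPM in cKO ovaries before birth (-1.80, and -1.71 without library 18), and was higher in cKO ovaries at PND1 (0.82, adjusted p = 0.0151) and PND4 (1.32, adjusted p = 0.000199). Fndc1, a fibronectin domain protein, likewise went from -1.23 to 0.76 (adjusted p = 0.0445) and 1.25 (adjusted p = 0.00192). Both genes thus reversed, and the difference was -2.87 ± 0.29 and -2.23 ± 0.33 on the log2 scale. Serpina3g was at -1.70 before birth and at 0.45 (adjusted p = 0.113) and 1.22 after it, and Tuba8 at -1.17, 0.84 and 1.16, the postnatal values not passing. Fam163a rose by 1.48 at ED17.5 and was at -0.08 (not passing) and -1.96 afterwards, and Sprr1a, Gfy and Celsr3 rose by 1.12, 1.03 and 1.10 with no postnatal change that passed. In other genes the direction was shared and the size differed: Angptl7 rose by 1.28 at ED17.5 and by 3.32 and 3.87 after birth, Egfem1 by 1.34 and by 3.62 and 3.91, whereas Rarres1 changed by -0.80 at ED17.5 and by -2.47 and -3.18 after it, and Gpr55 by -1.39 and by -1.94 and -3.86. Cdkn1c, lower at ED17.5, was at 0.18 and 0.38 after birth (difference -1.15), and Pole and Lig1, higher at ED17.5, lay between -0.06 and 0.06 after it (differences 0.62 and 0.41). Elastic fibre genes had 8 of 31 members with a smaller or more negative effect at ED17.5 and 0 with a larger one. Over all 17435 genes tested the effect was below the postnatal one in 363 and above it in 370. The median of the elastic fibre genes was 0.53 at ED17.5, 1.03 at PND1 and 0.80 at PND4. The part of stroma in this difference was not tested.

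Genes beside Amhr2 were examined because genotype goes together with the cre allele at that locus. Within 1 Mb 8 of 49 tested genes were called (16.3%), within 5 Mb 23 of 138 (16.7%) and within 10 Mb 26 of 161 (16.1%), against 18.8% of all genes; by chromosome the share ranged from 16.2% to 21.8%. The 8 included the keratin genes Krt8 and Krt18 of simple epithelia, at -449 and -417 kb from Amhr2. Krt8 was at 105, 130, 124 and 102 CPM in controls and 56.0, 53.9, 47.3 and 45.0 CPM in cKO ovaries (-1.19 ± 0.11, and -1.16 ± 0.13), and Krt18 changed by -1.27 and -1.14. Krt79 (0.91 and 0.92), Tns2 (0.35 and 0.35), Igfbp6, Rarg and Itga5 (0.44 and 0.41) were higher and Pfdn5 (-0.25 and -0.25) was lower, so neighbours of Amhr2 went both ways.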

How the data were processed

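Whole-ovary poly(A) RNA was sequenced in directional libraries from pools of mice, per the labels' protocols. The deposited table holds raw counts per Ensembl gene, made by the authors with Trimmomatic, STAR and HTSeq and the build GRCm38, per the submitters' processing notes, which also name DESeq2; the sources used here give no version, annotation release or strand setting, so reads of overlapping or antisense genes may not be separated. All 24 columns were matched to samples by title and library number. Of 55487 genes, 17435 passed filterByExpr, with 10 as its minimum count and 15 as its minimum total. The 24 libraries, in 6 groups, entered a single edgeR 4.0.16 model (TMM, robust glmQLFit, glmQLFTest; R 4.3.3) and the 23 libraries without library 18 another; Benjamini-Hochberg adjustment ran over all genes tested. Pairs of log2 changes in the text are with and without library 18. Standard errors are the log2 change over the square root of F, and rest on a spread shared by all groups. Values in CPM use TMM-scaled library sizes, and ranges and means of cKO leave library 18 out unless it is named. Nr5a1 and Amhr2 were also compared by exact permutation of log2 CPM (prior count 2). Gene coordinates are from GENCODE M21 and promoters from RefSeq (GRCm38.p6).

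The samples, gene lists and tests were chosen with earlier results of these data known. Genes were named by rule: Nr5a1, Nr5a2 and Amhr2; in each list described, members with the smallest adjusted p (the larger of both fits), at most 5; in each class of expression the 4 largest rises and falls with no overlap; 6 rises and 6 falls of the contrast with the postnatal effect; called genes within 1 Mb of Amhr2. Predicted gene models were counted and not named. The fits were also run on simulated counts with planted changes. These held no testis RNA and no replicate structure, so that run does not test the handling of either. Alternatives were leaving out each ED17.5 library, a replicate block, ED17.5 libraries alone, DESeq2 1.42.0 and its size factors, no filter, and libraries 1 to 12 or 13 to 24 alone. A few genes that the rule names are not reported here.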

Additional observations from a re-analysis of the deposited data

Results flagged for a closer look

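In groups of 4 libraries a value was picked out where its gap to the nearest other value exceeded Dixon's 95% limit, which chance passes in about 1 of 20 groups. Levels are in CPM and are followed by the range of the other 3 libraries of the group. Where those 3 are all 0, as for Accsl, any read passes the limit, so that flag does not show an unusual level. Library 18 (cKO replicate 3) stood above the other cKO libraries for Accsl (0.0791 against 0 to 0), Adamtsl2 (24.5 against 12.4 to 13.2), Aldh1a7 (21.5 against 8.29 to 9.47), Aldoc (12.2 against 8.10 to 8.76), Cbln4 (13.1 against 0.847 to 1.46), Cst8 (21.05 against 1.77 to 2.83), Cyp26b1 (53.3 against 22.1 to 24.0), Fdxr (69.3 against 22.8 to 26.4) and Gria4 (31.8 against 23.0 to 23.4). It also stood above them for Grik2 (17.9 against 9.80 to 10.9), Inhba (81.7 against 20.3 to 22.6), Lama2 (247 against 130 to 140), Lhcgr (35.9 against 1.67 to 3.48), Lhx9 (104 against 94.9 to 96.3), Lrfn5 (46.9 against 24.3 to 27.2), Nr5a1 (165 against 62.1 to 73.1), Pdgfra (955 against 485 to 550), Ptgds (40.4 against 13.6 to 15.8) and Sdc3 (132 against 102 to 105). It stood below them for C3ar1 (11.3 against 13.6 to 13.8), Irf9 (13.7 against 18.9 to 19.7) and Wnt2b (44.6 against 60.9 to 64.0). Among cKO libraries, replicate 1 was high for Akr1c13 (5.99 against 2.15 to 2.69), Asic1 (17.2 against 12.5 to 13.2), Ccl6 (15.7 against 2.77 to 3.93) and Hsd17b2 (3.72 against 1.35 to 1.67). Replicate 4 was low for Akr1b10 (20.7 against 24.1 to 24.5). Among controls, replicate 3 was high for Bgn (240 against 164 to 172), C1qb (25.3 against 15.5 to 16.6), Col6a6 (110 against 71.0 to 76.3), Kctd12 (163 against 123.5 to 129), Nrp2 (50.2 against 36.0 to 38.2), Ptgis (53.4 against 39.7 to 40.5) and Thbs3 (52.9 against 38.2 to 38.5), and low for Chit1 (5.22 against 7.54 to 7.90), Gstm6 (199 against 240 to 247), Rilp (1.40 against 3.14 to 3.36) and Sdhd (111 against 119 to 120). Control replicate 1 was high for Aldoa (717 against 664 to 672).

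The ED17.5 effect differed from the mean of the PND1 and PND4 effects by a test of that difference (edgeR, with and without library 18) in the following genes described in the report, with the log2 difference from all libraries. It was above the postnatal effect for Celsr3 (1.57), Fam163a (2.49), Gfy (1.85), Gpr55 (1.5), Lig1 (0.41), Pole (0.62), Ptgds (1.41), Rarres1 (2.02) and Sprr1a (2.84). It was below the postnatal effect for Adamts19 (-0.60), Adcyap1r1 (-0.51), Akr1c14 (-0.76), Aldh3a2 (-0.34), Aldoc (-0.74), Angptl7 (-2.31), Cdkn1c (-1.15), Chodl (-2.87), Cyp2f2 (-1.98), Defb42 (-2.20), Egfem1 (-2.42), Fndc1 (-2.23) and Grb10 (-0.35). It was likewise below for Hpgd (-0.59), Hsd11b2 (-0.80), Kitl (-0.64), Lama3 (-1.18), Mmp2 (-0.42), Pdgfrb (-0.82), Prelp (-0.54), Psmb9 (-1.38), Serpina3g (-2.54), Slc35f2 (-0.44), Thbs2 (-0.89), Thbs3 (-0.63), Trim66 (-1.28) and Tuba8 (-2.16).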

How the results depend on the processing

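Of the 3273 genes called at ED17.5, all kept their sign under the alternatives run except 7 with libraries 13 to 24 alone. Fewer stayed called: 37.7% with libraries 13 to 24 alone, 76.6% with libraries 1 to 12 alone and 82.3% with the ED17.5 libraries alone without library 18. Of 165 named genes, 59 no longer passed with libraries 13 to 24 alone. Leaving out each ED17.5 library in turn gave 3172 to 4129 genes (1472 to 2111 higher, 1607 to 2018 lower) and 747 to 1163 for the difference from the postnatal effect. With libraries 13 to 24 alone, which leaves library 18 and 1 other cKO library, 1419 genes passed (691 higher, 728 lower), against 3300 with libraries 1 to 12 alone; with 2 libraries per group both counts rest on a spread shared with the other ages. Same-numbered libraries of the 2 genotypes correlated by 0.04 to 0.18 in their deviations from the group means, and 3 of 4 controls correlated best with their own number. With replicate 3 of both genotypes left out, same-numbered libraries correlated by 0.06 to 0.18 and the others by -0.10 to 0.002. Every same-numbered pair thus lay above every other pair once replicate 3 was left out, and the main fit holds no replicate block. Still, these values do not settle whether the numbers pair the libraries. At ED17.5 libraries 13 to 24 are replicates 1 and 3, which were high in growing oocyte markers, and libraries 1 to 12 are replicates 2 and 4. The replicate block gave 4053 genes, and 1065 for the difference. Without library 18 the replicate block gave 3578, and 618 for the difference, against 3631 and 921 with no block. DESeq2 gave 4147 and no filter 3291. The Nr5a1 change ranged from -0.543 to -1.159 on leaving out 1 library. It did not pass with the ED17.5 libraries alone (-0.679, adjusted p = 0.247), with no filter (-0.693, adjusted p = 0.0761) or with libraries 13 to 24 alone (-0.181, adjusted p = 0.762), all of which hold library 18; the cause was not tested. With CAAGGTCA alone the motif share of the largest falls was 5.78%, since fewer sequences count as a match. Depth limits weak genes most: below 1 CPM the median standard error was 0.49.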
